A study of Homo sapiens with 4 samples.

Results

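The 10 genes described here encode scaffold and SR-related proteins of nuclear speckles: SON, SRRM2, SRRM1, PNISR, NKTR, ACIN1, BCLAF1, THRAP3, LUC7L and LUC7L3. The set was listed by symbol with earlier results of these data known, and all 10 were found among the 26830 gene symbols of the deposited expression table. RNA was sequenced from NOMO-1, a human acute myeloid leukaemia line with monocytic features, carrying a lentivirus for the coding sequence of ALKBH5 with a 3xFlag tag. ALKBH5 is a demethylase that turns N6-methyladenosine (m6A), a mark within mRNA, back into adenosine. GFP-positive cells were sorted after puromycin selection, their RNA was fixed to protein by UV light, and what the tagged protein held was pulled down through its Flag tag (RNA immunoprecipitation sequencing). There were 2 libraries of input RNA, taken without the antibody, and 2 of Flag-IP RNA, each group with the replicate numbers 1 and 3. All 4 came from cells with the transgene and puromycin selection, and the promoter that drives the transgene is not given in the sources used here. A Flag pull-down from untagged cells is not analysed here, and antibody background was thus not measured. The labels do not say whether replicates are separate cultures, so that p-values reflect only the spread of these libraries and that spread may be technical. They are bulk libraries, in which fewer cells with an RNA and less RNA per cell cannot be told apart.

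Nuclear speckles are bodies between the chromatin that store and modify splicing factors. SON and SRRM2 are large, disordered proteins on which the speckle is built. SR-related proteins carry stretches rich in arginine and serine, as the classical SR splicing factors do, and bind through them to other splicing proteins. Genes of this kind are known to make RNAs that keep an intron or hold an exon that leads to decay, by which they limit their own level.

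Values are TPM, transcript abundances scaled for length and for the library's total, so levels of different genes can be compared. Depth is unknown. Structural RNAs, mostly ribosomal, took 96.3% to 96.8% of TPM in input and 92.5% to 93.6% in Flag-IP, so most other genes were higher in Flag-IP as deposited. Each difference is therefore given on 2 scales, both as Flag-IP minus input in log2(TPM + 1): as deposited, and relative to the typical gene, after the libraries were scaled by the median ratio of the 6487 genes that averaged 1 TPM or more. The median of these genes was 0.84 as deposited and -0.01 after median-ratio scaling. The added 1 narrows differences most for genes below 1 TPM, so ratios of mean TPM can rank genes otherwise. A difference passed at an adjusted p below 0.05 in limma, adjusted over all 6487 genes. The ALKBH5 transcript stood at 4.77 ± 0.205 TPM without and 9.50 ± 0.834 TPM with the pull-down (mean ± SD, n = 2 in each group here and below). Relative to the typical gene its difference was -0.24 (limma adjusted p = 0.12), and 65.6% of tested genes had a larger ratio of mean TPM. Of 14 myeloid markers 8 reached 1 TPM on average among inputs and 10 after pull-down, and their summed level was 62.7 to 76.2 and 111 to 125 TPM. Of 21 markers of other cell types 1 (NKG7) and 2 (NKG7 and PECAM1) did, with sums of 12.7 to 15.8 and 24.9 to 26.4 TPM. CD3E, MS4A1 and EPCAM were at 0 in all 4 libraries. The part of these markers in the results was not tested.

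Coding stretches of 7 of the genes are shown for 2 short motifs. Each was picked as the first place with the most copies of its motif in 60 bases. The stretches thus illustrate the motifs and do not compare the genes. Those of NKTR and LUC7L hold 1 GGACT, of 4 and 2 in their coding sequences. GGACT is the commonest form of the sequence in which m6A is laid down, and GAAGAA is a purine repeat of the kind that splicing enhancers hold. Both were searched on the sense strand only, as RNA has 1 strand, and overlapping copies were counted. The first 4 stretches of 60 bases, each from 1 coding exon, hold the most GGACT in SON, SRRM2, NKTR and LUC7L, with GGACT in capitals (GENCODE 29, GRCh38).
SON, chr21:33551412-33551471, plus strand, exon 3 of 12: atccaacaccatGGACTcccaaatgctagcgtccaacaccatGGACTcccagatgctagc
SRRM2, chr16:2764846-2764905, plus strand, exon 11 of 15: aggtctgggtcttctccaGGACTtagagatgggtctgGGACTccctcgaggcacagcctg
NKTR, chr3:42619064-42619123, plus strand, exon 4 of 17: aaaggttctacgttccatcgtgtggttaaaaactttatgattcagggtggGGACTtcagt
LUC7L, chr16:227256-227315, minus strand, exon 2 of 10: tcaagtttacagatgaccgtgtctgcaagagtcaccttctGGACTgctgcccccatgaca

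The next 3 hold the most GAAGAA in SRRM1, ACIN1 and LUC7L3, with that motif in capitals.
SRRM1, chr1:24652946-24653005, plus strand, exon 8 of 18: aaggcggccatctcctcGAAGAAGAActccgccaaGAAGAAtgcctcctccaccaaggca
ACIN1, chr14:23080645-23080704, minus strand, exon 6 of 19: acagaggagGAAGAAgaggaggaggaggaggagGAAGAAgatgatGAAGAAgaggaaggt
LUC7L3, chr17:50743708-50743767, plus strand, exon 6 of 11: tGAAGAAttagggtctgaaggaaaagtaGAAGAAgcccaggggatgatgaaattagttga

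Of 194161 coding windows of 60 bases from tested protein-coding genes, 5.81% held GGACT and 0.182% held it at least 2 times, as the SON and SRRM2 windows do. GAAGAA was in 7.21% of the windows. At least 2 copies, as in the LUC7L3 window, were in 0.8725%, and at least 3, as in those of SRRM1 and ACIN1, in 0.160%. SON had the most GGACT, 13 in its coding sequence of 7278 bases, and LUC7L3 had none in 1467 bases. Per kilobase of coding sequence the median of the 10 genes was 0.940 GGACT, against 0.955 for 5963 tested protein-coding genes, and 5 of 10 lay above that. For GAAGAA the median was 3.00 per kilobase against 1.09, all 10 lay above the median of tested genes, and LUC7L3 was the highest with 7.5. Across those 5963 genes, GAAGAA per coding length had a Spearman's rho of 0.01 with the median-ratio difference and GGACT per coding length 0.06, given as a description over genes that share the same 4 libraries.

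As deposited, each of the 10 genes had its lower Flag-IP value above its higher input value, and all 10 passed limma on that scale. This was the rule among tested genes: 86.6% passed higher on the deposited scale and 93.1% had Flag-IP above input without overlap. On the median-ratio scale LUC7L, LUC7L3, NKTR and ACIN1 rose, 0 passed as lower in limma (0 also at an unadjusted p below 0.05), and 6 did not pass, where 22.3% of tested genes passed higher and 18.6% lower. On this scale the groups did not overlap for 7 genes above and 2 below input (SON and THRAP3), where 37.0% and 37.1% of tested genes lay so. The median of the 10 was 1.25 as deposited and 0.16 relative to the typical gene, where they lay between -0.19 and 1.08. The ratio of mean TPM ran from 2.08 (THRAP3) to 11.4 (LUC7L) with a median of 2.83, against 2.38 for tested genes. All 10 averaged 1 TPM or more, but PNISR, NKTR and LUC7L stayed below 1 TPM in input and passed this filter through their Flag-IP levels. NKTR and LUC7L are 2 of the 4 genes that rose on the median-ratio scale, so that count is a description only. As deposited, limma gave all genes of a level the same error (infinite prior degrees of freedom), so its p-values on that scale may be too small. The deposited calls of SON, THRAP3, BCLAF1 and PNISR were lost with quantile scaling and with structural RNAs left out, and that of SRRM1 with quantile scaling.

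**Figure D1:**
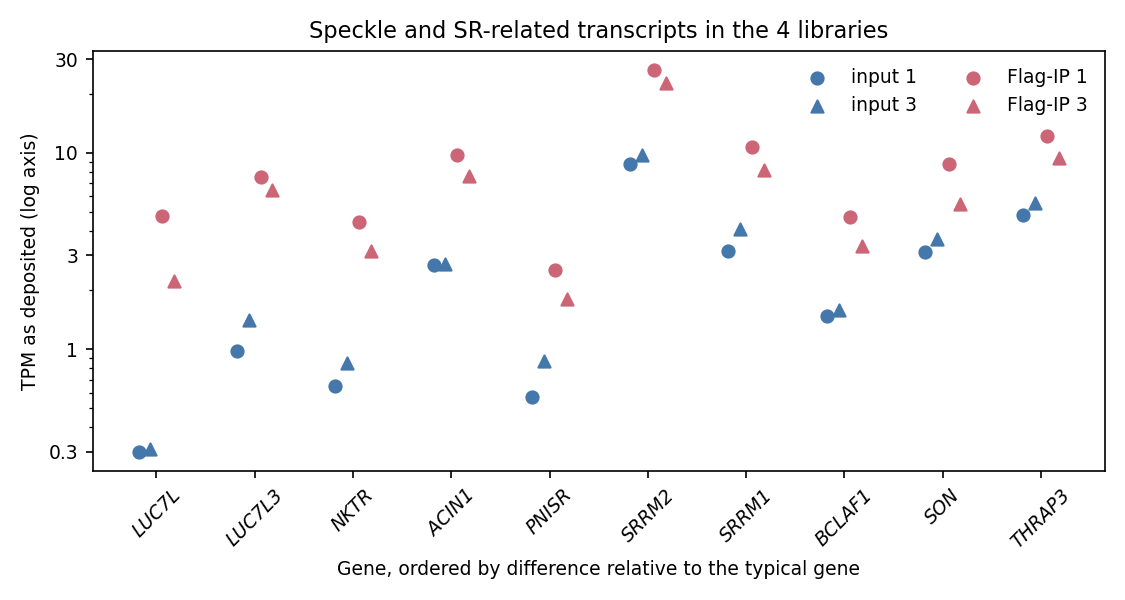
TPM as deposited (log axis) of the 10 genes in each of the 4 libraries; circles are replicate 1 and triangles replicate 3, inputs in blue and Flag-IP in red. Every Flag-IP point lies above both inputs of its gene, and the gap is widest for LUC7L.

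Together the 10 transcripts took 26.6 and 30.8 TPM in input 1 and 3, and 91.9 and 70.5 TPM in Flag-IP 1 and 3. As a share of all TPM outside structural RNAs this was 0.0832% and 0.0841% in input and 0.123% and 0.110% in Flag-IP. Both Flag-IP shares lay above both input shares, and the inputs differed far less than the Flag-IP libraries did. With structural RNAs left out the median log2 difference was 0.34 for the 10 and 0.16 for all 6283 tested genes. Of all these genes 35.6% passed as higher in limma, so a rise on this scale was not particular to the 10. SRRM2 alone gave 28.8% to 33.1% of the sum.

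The order of the levels was similar at the top and different at the bottom. In input the order was SRRM2, THRAP3, SRRM1, SON, ACIN1, BCLAF1, LUC7L3, NKTR, PNISR and LUC7L by mean TPM. The input values of SRRM1 and SON overlapped, as did those of NKTR and PNISR; the other neighbours did not. In Flag-IP it was SRRM2, THRAP3, SRRM1, ACIN1, SON, LUC7L3, BCLAF1, NKTR, LUC7L and PNISR. There only SRRM2 from THRAP3 and LUC7L3 from BCLAF1 were set apart without overlap of neighbours. LUC7L was last in both inputs, and PNISR in both Flag-IP libraries.

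The 2 speckle scaffolds were not called relative to the typical gene. SRRM2 (chromosome 16, 2752329 to 2772538, plus strand, GRCh38) was at 8.80 and 9.75 TPM in input 1 and 3 and at 26.43 and 22.78 TPM in Flag-IP 1 and 3. It was the most abundant of the 10 in every library, and both Flag-IP values lay far above input. The means were 9.28 ± 0.672 and 24.6 ± 2.58 TPM, a ratio of 2.65, and 40.8% of tested genes had a larger ratio. Its difference was 1.32 ± 0.21 as deposited (log2 ± SE, limma adjusted p = 4.6e-09) but 0.13 ± 0.10 against the typical gene (adjusted p = 0.33). Other scalings changed that: SRRM2 was called higher at 0.34 to 0.41 by limma under quantile scaling (adjusted p = 0.026), without structural RNAs (adjusted p = 0.011) and among genes averaging 5 TPM or more (adjusted p = 0.026). Once the trend with transcript length was subtracted it stood at -0.22 (adjusted p = 0.11).

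SON (chromosome 21, 33542618 to 33577481, plus strand) was at 3.14 and 3.64 TPM in input 1 and 3 and at 8.81 and 5.48 TPM in Flag-IP 1 and 3. Flag-IP 1 stood well above Flag-IP 3, so that its SD in Flag-IP (7.15 ± 2.35 TPM) was wide beside the input mean of 3.39 ± 0.354. The ratio was 2.11, and 60.6% of tested genes had a larger one. Its difference was 0.86 ± 0.21 as deposited (limma adjusted p = 1.0e-04) but -0.18 ± 0.13 against the typical gene (adjusted p = 0.30). With the length trend removed SON fell by 0.51 on the log2 scale and passed as lower (limma adjusted p = 0.0097); with structural RNAs left out it was at 0.02 (adjusted p = 0.93). On the opposite strand SON overlaps GART, at a mean of 5.86 TPM, and DONSON, at 1.11 TPM. The library kit keeps the strand, but whether the counting used it is not given in the sources used here, so the reads of these pairs may not be fully separated. The level of SON relative to SRRM2 was 0.357 and 0.373 in input 1 and 3 and 0.333 and 0.241 in Flag-IP 1 and 3.

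SRRM1, a splicing coactivator that works together with SRRM2, was not called relative to the typical gene either. It was at 3.15 and 4.07 TPM in input 1 and 3 and at 10.71 and 8.19 TPM in Flag-IP 1 and 3. The groups did not overlap, and the ratio was 2.62. On the median-ratio scale SRRM1 (chromosome 1, 24631716 to 24673267, plus strand) differed by 0.10 ± 0.11 (limma adjusted p = 0.46), which became 0.32 with structural RNAs left out (adjusted p = 0.046). Its ratio to SRRM2 was 0.388 in input and 0.382 in Flag-IP on average, and the libraries of both groups overlapped (exact permutation test, two-sided, p = 1.00). With 2 libraries against 2 such a test cannot go below 0.333.

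BCLAF1 and THRAP3 are related SR-like proteins that bind each other and act in splicing and export of mRNA. BCLAF1 (chromosome 6, 136256627 to 136289851, minus strand) was at 1.48 and 1.59 TPM in input 1 and 3 and at 4.73 and 3.37 TPM in Flag-IP 1 and 3. THRAP3 (chromosome 1, 36224416 to 36305357, plus strand) was at 4.84 and 5.56 TPM in input and at 12.24 and 9.41 TPM in Flag-IP, in the same order. Both rose as deposited and neither passed relative to the typical gene. BCLAF1 differed by 0.98 ± 0.21 as deposited and by 0.08 ± 0.11 on the median-ratio scale (limma adjusted p = 7.8e-06 and 0.56). THRAP3 differed by 0.92 ± 0.21 and -0.19 ± 0.10 (limma adjusted p = 3.6e-05 and 0.17), the lowest of the 10 on the median-ratio scale but not as deposited, where SON and PNISR were lower. By the ratio of mean TPM THRAP3 was the lowest (2.08), with SON at 2.11 and PNISR at 3.01. THRAP3 was at 0.026 with structural RNAs left out and at 0.0017 with a filter at 5 TPM, and BCLAF1 at -0.20 with the length trend removed, so neither direction was fixed by these data. Processed pseudogenes of SRRM1, BCLAF1 and THRAP3 are annotated but are not rows of the table, and whether reads of these 3 genes were shared with such copies was not tested.

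ACIN1 was at the edge of the threshold. The protein, acinus, sits in the complexes with RNPS1 and SAP18 that join the exon junction complex on spliced mRNA. ACIN1 (chromosome 14, 23058564 to 23095614, minus strand) was at 2.69 and 2.70 TPM in input 1 and 3 and at 9.73 and 7.64 TPM in Flag-IP 1 and 3. The inputs were almost equal and the Flag-IP values clearly higher, with a ratio of 3.22. Relative to the typical gene it rose by 0.34 ± 0.11 (limma adjusted p = 0.049). The call was lost in 9 of 13 alternatives, among them each of the 4 libraries left out (0.26 to 0.44, limma adjusted p = 0.067 to 0.21), no filter (0.31, adjusted p = 0.11), a pseudocount of 0.1 (0.41, adjusted p = 0.053) and the length trend removed (0.19, adjusted p = 0.21). C14orf119, at a mean of 0.945 TPM, overlaps it on the opposite strand.

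NKTR and PNISR had nearly the same input level and parted in Flag-IP. NKTR is a large cyclophilin, a prolyl isomerase, with an arginine and serine-rich tail. PNISR is an SR-related protein found through its binding to pinin. NKTR (chromosome 3, 42600614 to 42648741, plus strand) was at 0.65 and 0.85 TPM in input 1 and 3 and at 4.43 and 3.15 TPM in Flag-IP 1 and 3, a ratio of 5.05 that 10.8% of tested genes exceeded. PNISR (chromosome 6, 99398051 to 99425331, minus strand) was at 0.57 and 0.87 TPM in input and at 2.53 and 1.80 TPM in Flag-IP, in the same order, a ratio of 3.01. Neither gene's groups overlapped. Relative to the typical gene NKTR rose by 0.66 ± 0.11 (limma adjusted p = 0.0058), and PNISR was at 0.18 ± 0.12 (adjusted p = 0.25). NKTR was 1.14 and 0.977 times PNISR in input 1 and 3 and 1.75 times in each of Flag-IP 1 and 3, so the Flag-IP ratios lay above both inputs (exact permutation test, two-sided, p = 0.333, the smallest this design allows). This pair was chosen after its values were seen. NKTR passed in all 12 of its alternatives, between 0.37 with the length trend removed and 1.00 with a pseudocount of 0.1. The filter at 5 TPM left NKTR out, and NKTR entered the fits filtered at 1 TPM through its Flag-IP levels. It overlaps SEC22C, at a mean of 1.66 TPM, on the opposite strand.

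LUC7L3 and LUC7L, the LUC7-like genes of this set, had the largest differences of the 10. Their proteins are human relatives of yeast Luc7, a part of the U1 particle that helps to recognise the start of an intron. LUC7L2, a relative outside the set, is described below and did not pass on the median-ratio scale (-0.61). LUC7L3 (chromosome 17, 50719544 to 50756213, plus strand) was at 0.98 and 1.41 TPM in input 1 and 3 and at 7.55 and 6.48 TPM in Flag-IP 1 and 3. The Flag-IP values were close to each other and far above input, with a ratio of 5.87. It rose by 1.87 ± 0.21 as deposited and by 0.96 ± 0.11 relative to the typical gene (limma adjusted p = 2.4e-17 and 0.0022), and 5.3% of tested genes had a larger difference on the latter scale. LUC7L3 passed in all 12 of its alternatives, between 0.71 and 1.26.

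LUC7L (chromosome 16, 188969 to 229463, minus strand) was at 0.30 and 0.31 TPM in input 1 and 3 and at 4.76 and 2.21 TPM in Flag-IP 1 and 3. Flag-IP 1 was 2.15 times Flag-IP 3, the widest gap between Flag-IP libraries among the 10 genes, yet both stood far above input. The ratio of 11.4 was exceeded by 2.45% of tested genes, though it rests on an input level near the bottom of the scale, and depth is unknown. LUC7L rose by 1.72 ± 0.19 as deposited and by 1.08 ± 0.18 relative to the typical gene (limma adjusted p = 1.4e-17 and 0.0066). It passed in all 12 of its alternatives. Its difference was 0.74 without Flag-IP 1 and 1.94 with a pseudocount of 0.1, the ends of that range. LUC7L, too, entered the fits filtered at 1 TPM through its Flag-IP levels, and the filter at 5 TPM left it out. LUC7L relative to LUC7L3 was 0.306 and 0.220 in input 1 and 3 and 0.630 and 0.341 in Flag-IP 1 and 3.

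**Figure D2:**
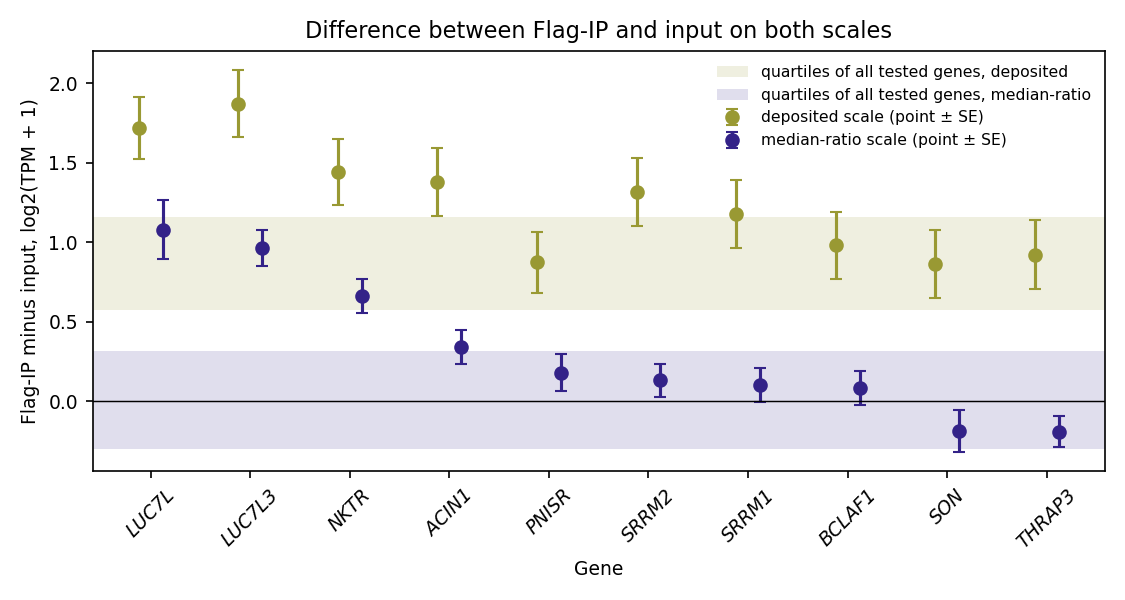
Flag-IP minus input in log2(TPM + 1) for each gene on the deposited scale (olive) and the median-ratio scale (blue), points with SE from limma; bands reach from the lower to the upper quartile of the 6487 tested genes on each scale. LUC7L, LUC7L3, NKTR and ACIN1 lie above the blue band, and the other 6 lie inside it.

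Within the 10 genes longer transcripts did not go with larger differences. Over 5967 tested protein-coding genes, measured in the same 4 libraries, longer transcripts had larger median-ratio differences (Spearman's rho 0.47 with the longest annotated transcript). Of the 10 genes 9 were longer than the median of 3567 bases, and their own median was 6114.5 bases. The exception was LUC7L, the shortest with 2737 bases and the one with the largest difference. SRRM2 (9353 bases) and SON (8813 bases) were the longest and were not called. Within the 10 the rho was -0.20. With the length of the transcript that has the longest coding sequence it was -0.42, and with coding length -0.47. Over tested genes these were 0.48 and 0.59. By that transcript LUC7L3, with 2284 bases, also lay below the median of 2909 bases. The trend removed below was that with the longest annotated transcript, which has 7040 bases for LUC7L3. With the length trend removed LUC7L (1.16), LUC7L3 (0.71) and NKTR (0.37) passed as higher in limma (adjusted p = 3.2e-04, 0.0014 and 0.026), SON as lower, and the other 6 did not pass.

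**Figure D3:**
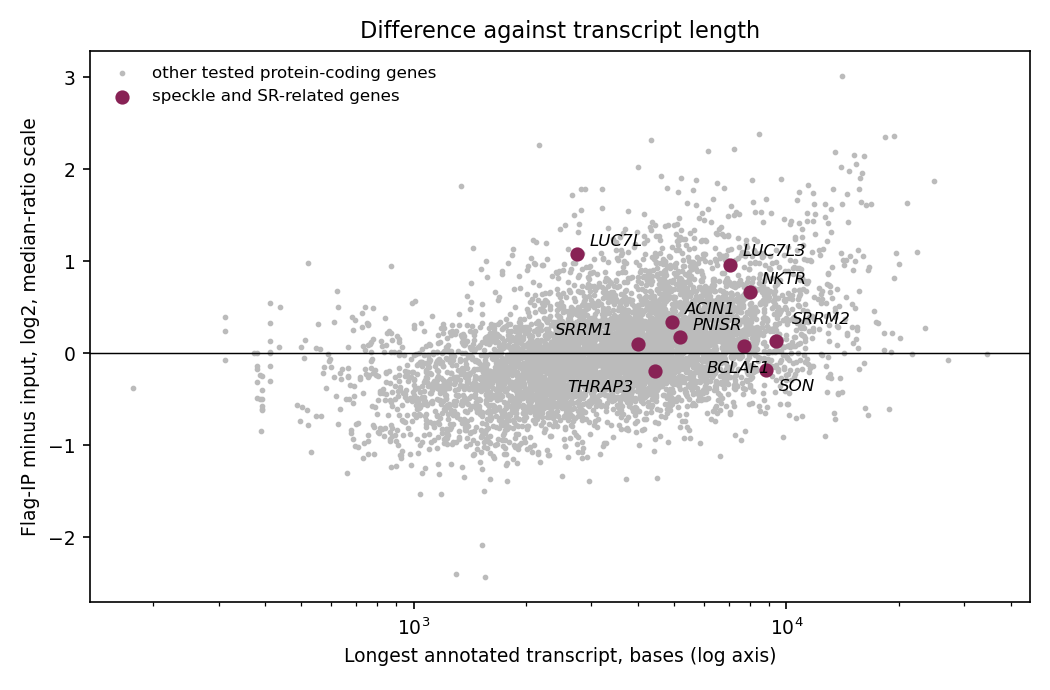
Flag-IP minus input on the median-ratio scale (log2) against the length of the longest annotated transcript (bases, log axis) for 5967 tested protein-coding genes in grey, the speckle and SR-related genes in purple. LUC7L lies high for its length of 2737 bases, while SON and SRRM2, the longest, lie near 0.

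These genes are annotated with many RNAs that keep an intron. A retained-intron transcript, in the annotation, is a noncoding RNA of a gene in which intron sequence was not removed. The 10 genes had a median of 6.5 such transcripts (0 to 13), against 2 for tested protein-coding genes, and 8 of 10 lay above that. They also had more annotated transcripts of all kinds, a median of 22 against 9, and retained-intron transcripts made up a median of 29.6% of them (0% to 68.4%) against 16.7%, with 7 of 10 genes above. SRRM2 and NKTR had 13 each, ACIN1 had 10, and PNISR and THRAP3 had 0. Of transcripts annotated for nonsense-mediated decay the median was 2, against 0, or 8.89% of a gene's transcripts against 0%, with 8 in LUC7L3 and 7 in BCLAF1. Among tested protein-coding genes the median-ratio difference was higher with more retained-intron transcripts: its median was -0.11 for the 1946 genes with 0, 0.01 for 2907 genes with 1 to 4, 0.14 for 956 genes with 5 to 9, and 0.32 for 158 genes with 10 or more. Those passing as higher made up 14.1%, 22.6%, 34.4% and 49.4% of these classes. Their median transcript length rose as well, from 3009.5 to 4540 bases, and with the length trend removed the medians were -0.05, 0.01, 0.11 and 0.23. Spearman's rho with the median-ratio difference was 0.21 for retained-intron transcripts and 0.22 for annotated transcripts of all kinds. For coding length it was 0.59 and for exon number 0.57. Whether retained introns matter apart from these was not tested. In the highest class NKTR (0.66) and ACIN1 (0.34) lay above the class median and SRRM2 (0.13) below it. In the lowest, PNISR (0.18) lay above and THRAP3 (-0.19) below. In the class with 5 to 9, SON (-0.18), SRRM1 (0.10) and BCLAF1 (0.08) lay below and LUC7L (1.08) above. LUC7L3 (0.96) lay above in the class with 1 to 4. The values are per gene, so reads of intron-keeping and fully spliced RNAs cannot be told apart, and the classes were chosen after the differences were seen.

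**Figure D4:**
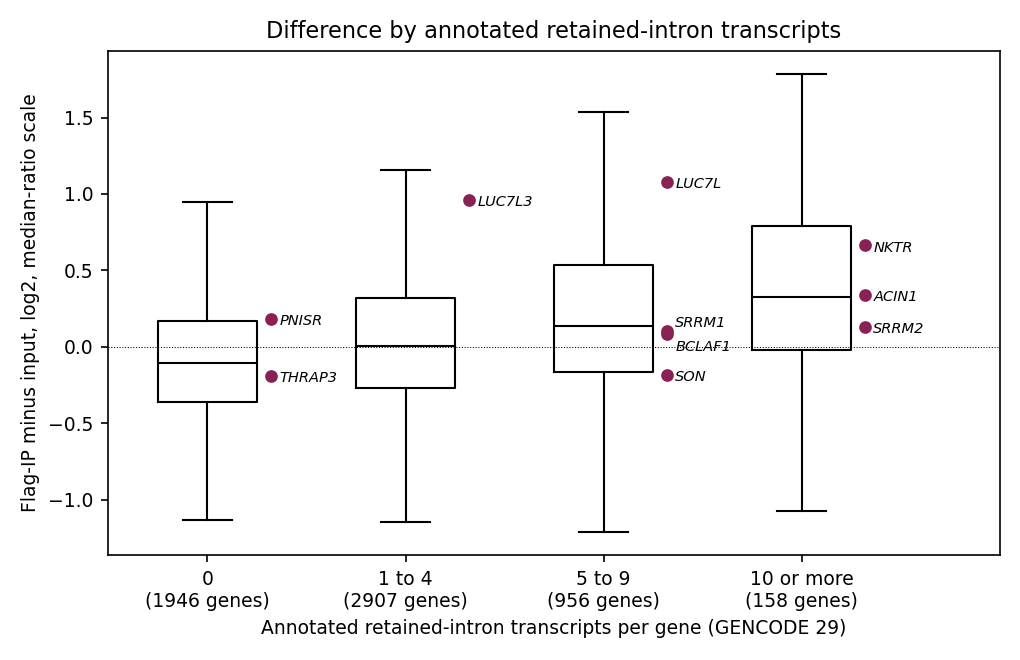
Flag-IP minus input on the median-ratio scale (log2) for tested protein-coding genes by their number of annotated retained-intron transcripts; boxes show the median and quartiles, whiskers reach 1.5 times the box height at most, and purple points are the speckle and SR-related genes. The class medians go from -0.11 to 0.32, and LUC7L and LUC7L3 lie above the boxes of their classes. SON, SRRM1, BCLAF1, THRAP3 and SRRM2 lie below their class medians.

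The other speckle and SR-related genes were mixed as well. Of 64 listed genes 59 were tested, and relative to the typical gene 23 were higher, 5 lower and 31 did not pass, with a median of 0.14. As deposited 55 passed as higher in limma, 0 as lower (0 also at an unadjusted p below 0.05) and 4 did not pass. The shares of all tested genes passing higher and lower were 22.3% and 18.6% on the median-ratio scale, and 86.6% and 0.740% as deposited. Of the 59, 8 averaged below 1 TPM in input and entered the test through their Flag-IP levels, and 5 of these are among the 23.

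Of the partners of ACIN1 at the exon junction complex, 0 of 7 passed as higher in limma on the median-ratio scale (1, MAGOH, at an unadjusted p below 0.05). Of these, RBM8A fell and the other 6 did not pass relative to the typical gene, with a median of -0.09. RBM8A, a core protein of that complex, averaged 1.10 TPM in the inputs and 1.54 TPM in Flag-IP, a median-ratio difference of -0.42 ± 0.12 (limma adjusted p = 0.033). RNPS1, the partner of ACIN1, was at 4.61 and 10.3 TPM (-0.09 ± 0.11), the helicase EIF4A3 at 4.73 and 9.94 TPM (-0.17 ± 0.11) and MAGOH at 1.17 and 3.84 TPM (0.32 ± 0.13), none of them past the threshold.

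Among 8 U1-related genes, PRPF39, TIA1 and RBM25 rose, SNRPC fell, and 4 did not pass on the median-ratio scale. The 3 that rose all averaged below 1 TPM in input and entered the test through their Flag-IP levels, so their count is a description only. RBM25, which binds LUC7L3, went from 0.985 to 5.43 TPM (0.82 ± 0.11, limma adjusted p = 0.0033), and TIA1, which helps U1 to bind weak sites, from 0.605 to 3.58 TPM (0.77 ± 0.12, adjusted p = 0.0055). The U1 proteins themselves stood differently: SNRNP70 was at 5.07 and 13.9 TPM (0.19 ± 0.14, not passed), and SNRPC went from 6.27 to 10.4 TPM (-0.48 ± 0.13, adjusted p = 0.028).

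Of 26 other SR-related genes, 11 rose, 2 (PPIG and CIR1) fell and 13 did not pass relative to the typical gene, with a median of 0.25. SUGP2, a protein with a domain shared with splicing helicase activators, had the largest difference: 1.98 TPM in input and 17.3 in Flag-IP (1.57 ± 0.10, limma adjusted p = 4.9e-04). CLASRP, a partner of CLK kinases, went from 1.00 to 8.18 TPM (1.32 ± 0.14, adjusted p = 0.0016), and SRRT, which acts with the cap-binding complex, from 3.12 to 15.6 TPM (0.93 ± 0.11, adjusted p = 0.0021).

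Relative to the typical gene, 4 of 11 SR proteins and TRA2 genes rose, SRSF4 fell and 6 did not pass, with a median of 0.12. As deposited all 11 passed as higher, as did 86.6% of all tested genes. SRSF5 went from 1.38 to 8.49 TPM (1.03 ± 0.11, limma adjusted p = 0.0019) and SRSF6 from 1.25 to 6.12 TPM (0.75 ± 0.10, adjusted p = 0.0032). SRSF3 (3.08 and 7.35 TPM) and SRSF9 (2.86 and 7.15 TPM) were at 0.00 and 0.05 and did not pass. Of 7 kinases of SR proteins, all passed as higher as deposited. On the median-ratio scale 5 rose and 0 fell in limma (0 also at an unadjusted p below 0.05), where 22.3% of tested genes passed higher. Of these 5, CLK1 (input mean 0.79 TPM, Flag-IP mean 10.4 TPM) and CLK4 (0.29 and 1.85 TPM) entered the test through their Flag-IP levels. CLK3 went from 3.37 to 14.0 TPM (0.69 ± 0.10, limma adjusted p = 0.0041) and CLK1 had the largest difference (1.79).

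The 5 genes whose values over the 4 libraries lay nearest to the mean profile of the 10, on the median-ratio log2 scale and centred per gene, were DDX3X, GANAB, GPNMB, CLTC and B2M, out of 1534 genes averaging 5 TPM or more. Their distances from it were 0.0376 to 0.0469 log2 units.

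**Figure D5:**
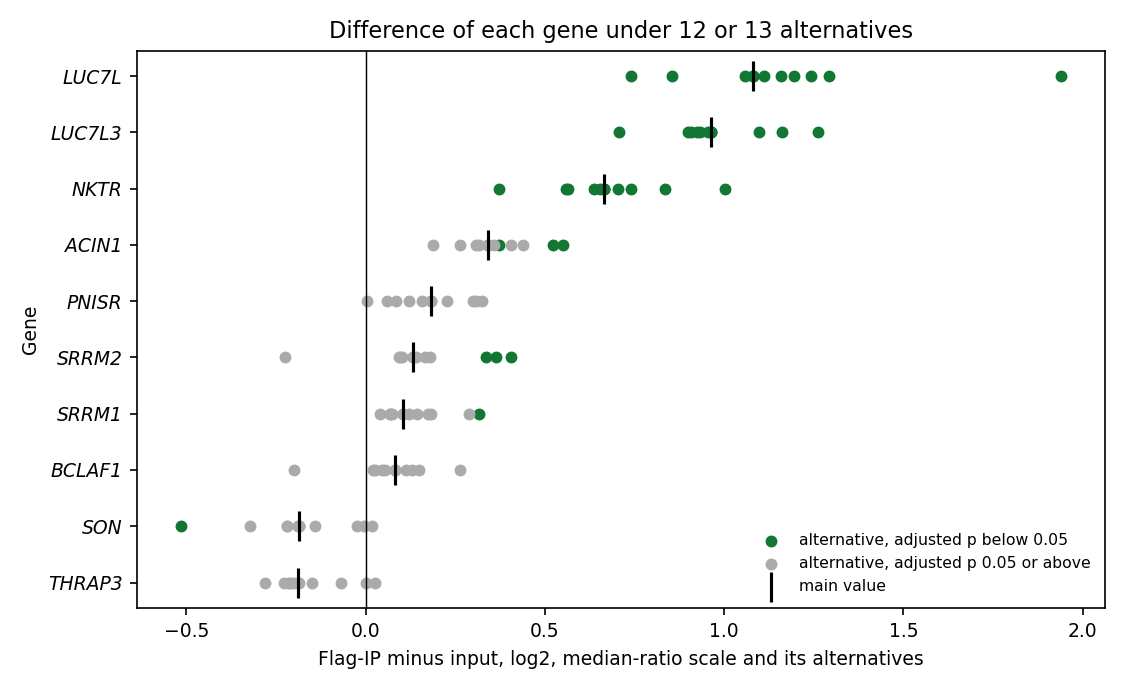
Flag-IP minus input (log2) of each gene on the median-ratio scale (black bar) and under 12 or 13 other ways of processing (dots), green where limma's adjusted p was below 0.05. NKTR, LUC7L and PNISR entered the filtered fits through their Flag-IP levels. All dots of LUC7L, LUC7L3 and NKTR are green and right of 0, those of ACIN1 are mixed, and those of SON, SRRM2, BCLAF1 and THRAP3 fall on both sides of 0.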

How the data were processed

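STAR, RSEM and the build GRCh38 are named in the submitters' processing notes, with no versions or annotation. The authors deposited TPM for 26830 gene symbols and 4 libraries, to 2 decimals. Genes averaging 1 TPM or more entered the test, on log2(TPM + 1), with limma 3.58.1 in R 4.3.3 (lmFit, eBayes with a mean-variance trend, two-sided, Benjamini-Hochberg over all tested genes). The prior degrees of freedom were 4.02 on the median-ratio scale and infinite as deposited, with 2 residual. In median-ratio scaling a library is divided by the median of its ratios to each gene's geometric mean. Positions, lengths and transcript types came from GENCODE 29 by symbol, which 23794 symbols matched once. Motifs were counted in the longest coding sequence per gene.

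The genes, lists and tests were chosen with earlier results of these data known. Named were all 10 genes and, in each list, the 2 most abundant and the 2 with the largest absolute difference, besides those singled out after their values were seen. Alternatives were quantile scaling, structural RNAs left out, no filter, a filter at 5 TPM, a pseudocount of 0.1, no trend, a replicate block, the length trend removed (loess, span 0.5), each library left out, and, added after seeing the data, a crossed block. On simulated data for 6487 genes of equal noise, limma recovered 100% of the genes set 1 log2 unit higher or lower on either scale. Smaller changes and a shift of structural RNAs were not simulated, so this does not cover calls such as those of ACIN1 and NKTR. One marker of another cell type is not reported here.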

Additional observations from a re-analysis of the deposited data

How the results depend on the processing

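On the median-ratio scale 4 of the 10 genes were higher, as were 22.3% of all tested genes. Of these 4, NKTR and LUC7L entered the test through their Flag-IP levels, so the counts are a description only. Quantile scaling and leaving out structural RNAs each replace the median-ratio scaling, so each is a single fit that serves both scales. The count was 5 with quantile scaling (19.2% of all tested genes) and 6 with structural RNAs left out (35.6%). It was 3 with a replicate block (input 1 with Flag-IP 1; 19.8%), the length trend removed (22.6%), no filter (8.86%), a pseudocount of 0.1 (22%) and without any 1 library (14.8% to 17.5%), ACIN1 being the gene lost each time, and 2 of the 5 genes left with a filter at 5 TPM (25.5%); with the length trend removed 1 gene (SON) was lower. As deposited 10 were higher, also with the block (73.8% of all genes), and 5 of 5 with a filter at 5 TPM (82.7%). The fits with quantile scaling (5 higher, 19.2%) and with structural RNAs left out (6 higher, 35.6%) are the same ones given above. The median difference of the 10 was 0.16 on the median-ratio and 1.25 on the deposited scale. In the single fit with quantile scaling it was 0.28, and in that with structural RNAs left out 0.34. The median of all genes was -0.05 and 0.16 in these fits. On the median-ratio scale the median of the 10 was 0.036 with the length trend removed and 0.29 for the 5 genes averaging 5 TPM or more. Without 1 library it was 0.15 to 0.22 and 1.11 to 1.39. Against the median-ratio scale the direction turned for BCLAF1 (-0.20) and SRRM2 (-0.22) with the length trend removed. It also turned for THRAP3 (0.0017) with a filter at 5 TPM, and for SON (0.019) and THRAP3 (0.026) with structural RNAs left out. Against the deposited scale it turned for SON (-0.14) and THRAP3 (-0.068) with quantile scaling. The cause was not tested. Of the 59 other speckle and SR-related genes, 23 were higher and 5 lower on the median-ratio scale (22.3% and 18.6% of all genes). A filter at 5 TPM left 13, with 6 higher and 0 lower (25.5% and 23.1% of all genes). With the length trend removed 21 were higher and 10 lower (22.6% and 18.6%), and with no filter 18 and 2 (8.86% and 5.45%). With structural RNAs left out it was 29 and 2 (35.6% and 11.6%), and with quantile scaling 20 and 7 (19.2% and 18.8%).

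The labels do not say that the numbers pair the libraries, so they were not taken as pairs. Deviations of libraries with the same number had a correlation of -0.19 over 6487 genes. With 2 libraries per group this is a single contrast and cannot settle the pairing. The block gave 21 higher and 4 lower of the 59 (19.8% and 16.3% of all genes). A crossed block gave 22 and 7 (21.7% and 19.7%), with 3 of the 10 higher. Depth is unknown, so counting error at low TPM, as for LUC7L in input, is not measured. A fit without 1 library takes the lone library's spread from the other group.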
